A study of Homo sapiens with 30 samples.

Results

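The genes described here make, sense and inactivate prostaglandin E2. They are PLA2G4A, PTGS1, PTGS2, PTGES, PTGES2, PTGES3, PTGER2, PTGER4 and HPGD, and they were taken as the probes whose gene name in the array files is 1 of these 9 symbols. This gave 10 probes of 58201 on the main array design, 2 for PTGS1 and 1 for each of the other genes, and 9 of 44021 gene names. Of the 9 genes, 8 were bright enough to be tested, among 32099 tested probes with 24539 gene names, and HPGD was not.

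Prostaglandin E2 is a lipid signal made from arachidonic acid, which cytosolic phospholipase A2 cuts from membrane lipids. The cyclooxygenases turn arachidonic acid into prostaglandin H2, terminal synthases convert that into prostaglandin E2, and the receptors EP2 and EP4 answer it by raising cyclic AMP in the cell. In the airway, prostaglandin E2 from epithelial cells is known for relaxing smooth muscle and for both dampening and promoting inflammation, and pollen grains release lipids related to it.

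The cells were BEAS-2B, an immortalised line of human bronchial epithelium, grown on inserts at the air-liquid interface. Pollen cultures received 10 mg of whole birch pollen that was blown into a sedimentation chamber, and air cultures went through the same procedure without pollen. The authors state that a fine mesh kept the grains away from these control cells. The sample labels give 10 mg for the air cultures too. There were 5 incubation times, the shortest being 10 min and 55 min, followed by 2h25 min, 6h50 min and 24 h, and each of the 10 groups had 3 arrays. All groups came from the same single line, so replicates are repeats of a culture and not of a donor.

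Values are log2 signals minus the 75th percentile of the array over the probes shared by all arrays, so that 0 means a signal at that percentile. They can be compared between arrays for 1 probe but not between probes. On each array 44.7 to 59.3% of probes were well above background. The 30 arrays lay on 5 slides, all 6h50 min arrays lay on a slide of their own, and the pollen 55 min replicate 1 array was of another design and alone on its slide. KRT5, KRT8, KRT14, KRT18, CDH1 and EPCAM, markers of airway epithelium, were well above background on 30 of 30 arrays, and TP63, a marker of basal cells, on 21. Of the 4 markers of differentiated airway cells, MUC5B was well above background on 0 arrays, FOXJ1 on 8, MUC5AC on 27 and SCGB1A1 on 29. COL1A1, DCN, PDGFRB, PTPRC, CD14 and CDH5, which mark other cell types, were well above background on 30 arrays, while PECAM1 was on 0 and CD68 could be read on 1 array only.

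The steps of the pathway differed in how well the arrays saw them. PLA2G4A, which encodes cytosolic phospholipase A2, the synthase genes PTGES2 and PTGES3 and the receptor genes PTGER2 and PTGER4 were well above background on 30 of 30 arrays. PTGS1, the constitutive cyclooxygenase, was well above background on 29 arrays, and PTGES, the inducible microsomal synthase, on 27. PTGS2, the inducible cyclooxygenase, was well above background on only 12 of 30 arrays, with at most 2 of 3 arrays in every group except pollen at 2h25 min. HPGD, whose enzyme inactivates prostaglandin E2, was well above background on 0 of 30 arrays, and its signals between -9.30 and -7.91 give no level. The plot of every array shows both the late fall of several genes and the scatter of the dim probes.

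**Figure D1:**
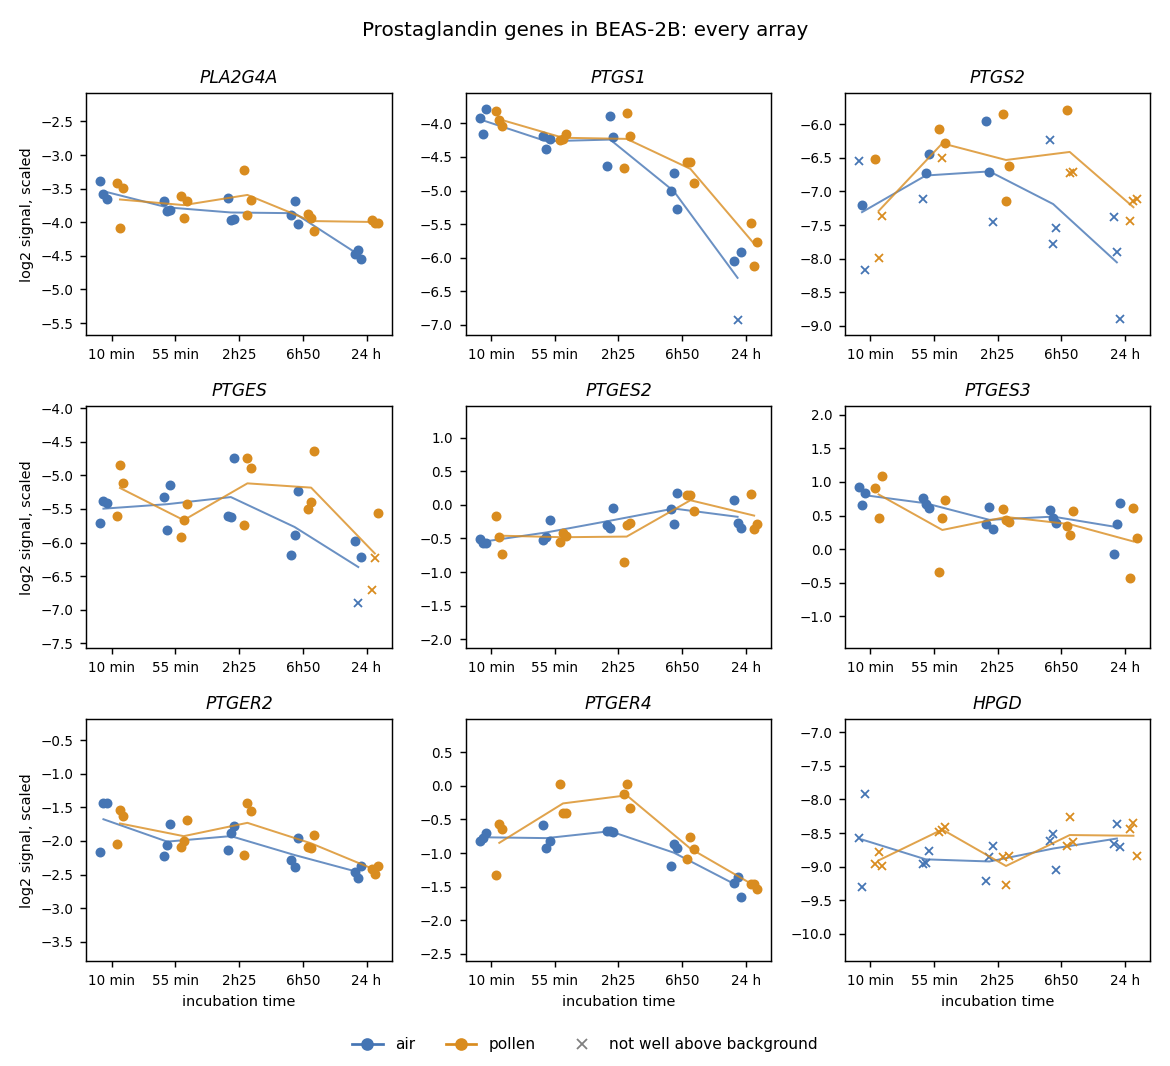
Log2 signal minus the 75th percentile of the array (vertical axis, 3.6 log2 units in each panel) against incubation time for the 9 genes, with 1 point for each array, lines through the group means, air in blue and pollen in orange; crosses are arrays on which the probe was not well above background. PTGS1 and PTGER4 are lower at 24 h than at 2h25 min in both arms, and HPGD has crosses only.

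Pollen was compared with air at each time to see which genes of the pathway responded to the grains. At none of the 5 times did a gene of the pathway differ between pollen and air by the test used, whose threshold was 0.05 for the adjusted p together with a 1.1-fold change. PTGER4, the gene of the EP4 receptor, had all pollen arrays above all air arrays at 55 min and at 2h25 min. PLA2G4A had its pollen arrays above all air arrays at 24 h. The share of all probes whose arrays separate in this way was not computed, so the separation is a description and not evidence of a response. By limma, 0 of 8 genes were called at each time. In the order of the times, 0, 0.00312, 0.0343, 0.0436 and 0.00312% of all probes were called, those at 6h50 min being 0.0374% higher and 0.00623% lower in pollen and all others higher. At an unadjusted p under 0.05 the genes numbered 0, 1, 1, 0 and 2, beside 1.83, 5.08, 2.98, 7.44 and 3.61% of all probes. Their median log2 differences were 0.01, 0.04, 0.18, 0.15 and 0.12, and those of all probes lay between -0.03 and 0.01. Fewer cells of a kind and less RNA for each cell cannot be told apart in these whole-culture values.

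The receptor gene PTGER4 read -0.58, -0.93 and -0.82 in air at 55 min and 0.02, -0.40 and -0.41 in pollen. Its air arrays at 2h25 min read -0.67, -0.67 and -0.69 and its pollen arrays -0.12, 0.03 and -0.34. At both times every pollen array was above every air array and the groups did not overlap. The difference was 0.52 on the log2 scale (SE 0.16, 1.43-fold, 95% confidence interval 0.18 to 0.85) at 55 min and 0.53 (SE 0.16, 1.45-fold, 0.20 to 0.87) at 2h25 min. In limma with Benjamini-Hochberg adjustment the adjusted p was 0.92 and 0.97. At 10 min, 6h50 min and 24 h the differences were -0.08, 0.06 and 0.00, and the groups overlapped.

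The value at 55 min leaned on the pollen replicate 1 array, which has the other design and the highest PTGER4 signal of its group. Without it the difference was 0.37, and within the slide carrying the other 2 pollen arrays and 2 air arrays it was 0.47. With array weights PTGER4 passed at 55 min, at 0.49 with a limma adjusted p of 0.0333, while over all 18 other settings the adjusted p ran from 0.0333 to 1 and the difference from 0.01 to 0.61. The lowest of these came from the authors' table of log2 values, in which the median of all probes at 55 min was -0.24, and scaling each array over its own probes gave 0.10 with a median of all probes of -0.37. At 2h25 min PTGER4 differed by 0.63 within the slide carrying 2 arrays of each arm and ran from 0.44 to 0.63 over 18 settings, with limma adjusted p from 0.17 to 1. The replicate numbers paired the arrays at 2h25 min, and with the pair as a block the limma adjusted p there was 0.185.

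PLA2G4A, which frees the substrate of the pathway, read -4.47, -4.42 and -4.55 in air at 24 h and -3.97, -4.01 and -4.01 in pollen. The 3 pollen arrays lay close together and above all 3 air arrays. The difference of 0.48 (SE 0.16, 1.4-fold, 0.14 to 0.82) did not pass, with a limma adjusted p of 1, and of 0.209 with the pair as a block. PLA2G4A differed by -0.12 to 0.26 at the other times, with overlapping groups.

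PTGS1 read -6.04, -6.93 and -5.92 in air at 24 h and -5.49, -6.12 and -5.77 in pollen. Here the groups overlapped, although the pollen array was above the air array of the same number in 3 of 3 pairs. The difference of 0.51 (SE 0.24, 0.02 to 0.99) did not pass, with a limma adjusted p of 1, and of 0.194 with the pair as a block. Without air 24 h replicate 2 it was 0.19, and the other PTGS1 probe gave -0.07. The largest pollen differences by size belonged to PTGS2, 0.78 at 6h50 min and 0.82 at 24 h, with confidence intervals of -0.24 to 1.79 and -0.19 to 1.83. Both rest on dim signals: at 6h50 min 1 of 3 pollen arrays and 0 of 3 air arrays were well above background, and at 24 h no array was, so no fold is given.

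The terminal synthases and the EP2 receptor gene gave smaller or wider differences. PTGES differed by -0.24 to 0.59, the highest at 6h50 min with an interval of -0.12 to 1.29. PTGES2, a membrane-associated synthase, differed by -0.24 to 0.12 and PTGER2 by -0.06 to 0.20. PTGES3, the cytosolic synthase that is also known as the co-chaperone p23, differed by -0.40 to 0.04. The groups overlapped in all of these comparisons. The plot of pollen minus air shows the intervals, most of which span 0 by a wide margin and so leave room for differences of either sign.

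**Figure D2:**
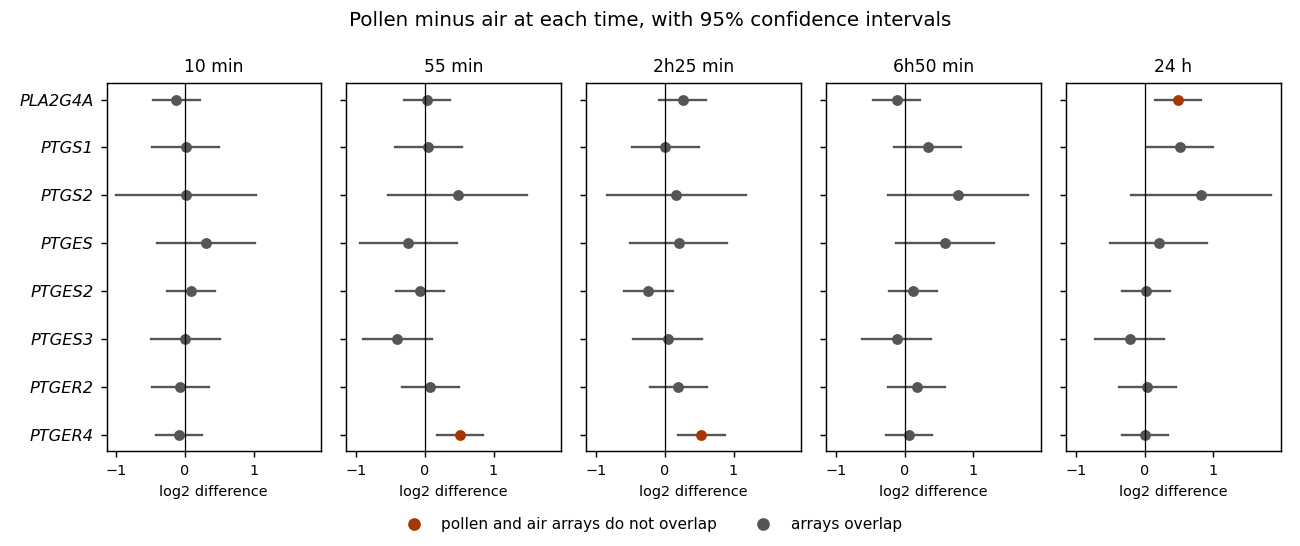
Difference in log2 signal, pollen minus air (horizontal axis, 95% confidence interval from limma), for the 8 tested genes in 1 panel for each time; red points mark differences for which the 3 pollen and the 3 air arrays do not overlap. These are PTGER4 at 55 min (0.52) and 2h25 min (0.53) and PLA2G4A at 24 h (0.48), and none passed the test across all probes. The share of all probes without overlap was not computed.

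Whether the pollen difference itself changed from one time to the next was tested as an interaction. By limma, 0 of 8 genes were called at each of the 4 steps, where 0, 0, 0.00312 and 0% of all probes were called. At an unadjusted p under 0.05 there was PTGER4 from 10 to 55 min, with a change of 0.60 (SE 0.23, adjusted p 0.945), and PLA2G4A from 6h50 min to 24 h, also with 0.60 (SE 0.23, adjusted p 0.928). At these steps 3.77 and 5.16% of all probes had an unadjusted p under 0.05. The drop of the PTGER4 difference from 2h25 min to 6h50 min was -0.47 (SE 0.23, limma adjusted p 0.893).

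By size, the change from 2h25 min to 24 h exceeded the largest pollen difference at any time in both arms for PTGS1, PTGER4, PTGER2 and PTGES. For PLA2G4A, PTGS2, PTGES2 and PTGES3 it did not do so in both arms. Between 2h25 min and 24 h, PTGS1 and PTGER4 fell in air and in pollen, PTGES fell in both arms with a wide error, PLA2G4A fell in air and PTGER2 fell in pollen. No gene of the pathway was called higher over this interval. By limma, 5 of 8 genes were called in air, where 27.4% of all probes were called and 14.9% lower, and 4 of 8 in pollen, where 23% were called and 11.8% lower. The 5 in air include PTGS2, which was well above background on 0 of 3 air arrays at 24 h and entered the test only through pollen at 2h25 min. The median log2 change of the 8 genes was -0.72 in air and -0.70 in pollen, beside -0.07 and -0.02 for all probes. Both medians include PTGS2, which was well above background on 0 of 3 arrays at 24 h in each arm. In pollen the median lies between PTGER2 (-0.697) and PTGS2 (-0.703). PTGS2 passed the filter only where this interval starts, so the medians are descriptions. This interval was chosen after the slides had been seen, because 2h25 min and 24 h share a slide and 6h50 min shares none. Only 1 array of each arm at 2h25 min lies on the slide of the 24 h arrays, and the other 2 of each arm lie on another slide. Slide and time are therefore only partly separated over this interval.

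PTGS1 had the widest course, with group means from -3.94 in pollen at 10 min down to -6.30 in air at 24 h. In air it read -4.64, -3.89 and -4.20 at 2h25 min (mean -4.24, SD 0.38, n = 3) and -6.04, -6.93 and -5.92 at 24 h (-6.30, SD 0.55, n = 3). In pollen it read -4.66, -3.85 and -4.18 at 2h25 min and -5.49, -6.12 and -5.77 at 24 h. All 24 h arrays of PTGS1 lay below all 2h25 min arrays in both arms. The fall was 2.06 log2 units in air, a 4.16-fold decrease (SE 0.24, limma adjusted p 1.5e-06), and 1.56 in pollen, a 2.95-fold decrease (SE 0.24, limma adjusted p 5.39e-05). It was called under 15 of 15 other settings in each arm, with changes of -2.52 to -0.63 in air and -1.77 to -0.54 in pollen. On the slide shared by both times, the replicate 3 arrays of 2h25 min read -4.20 in air and -4.18 in pollen, again above all 6 arrays of 24 h.

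Both PTGS1 probes showed the fall. The probe used above lies at chr9:125155052-125155111 on hg19 and the other one downstream of it at chr9:125157536-125157595, and the downstream probe fell by 1.63 in air (SE 0.30, limma adjusted p 0.000265) and by 1.61 in pollen (SE 0.30, limma adjusted p 0.000418). At 24 h the downstream probe was well above background on 1 of 3 arrays in each arm and the upstream probe on 2 of 3 air arrays and 3 of 3 pollen arrays, so the size of the fall is least certain at its end. In the plot the group means of both probes were lower at 6h50 min than at 2h25 min in both arms. In air PTGS1 fell by 0.77 from 2h25 min to 6h50 min (SE 0.24, limma adjusted p 0.0163), the single gene of 8 called there, where 32.4% of all probes were called, 9.9% higher and 22.5% lower, and by 1.29 from 6h50 min to 24 h (adjusted p 0.000207). The step to 6h50 min lost its call without air 2h25 min replicate 2 (-0.59) or without air 6h50 min replicate 3 (-0.64), and the slide of the 6h50 min arrays and the time cannot be told apart. In pollen the step to 6h50 min was -0.45 with an adjusted p of 0.153, and the step to 24 h was -1.11 with an adjusted p of 0.000955, both by limma. These steps are those of the upstream probe. The downstream probe passed in neither arm at the step to 6h50 min, with -0.69 in air (limma adjusted p 0.0811) and -0.58 in pollen (limma adjusted p 0.147).

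**Figure D3:**
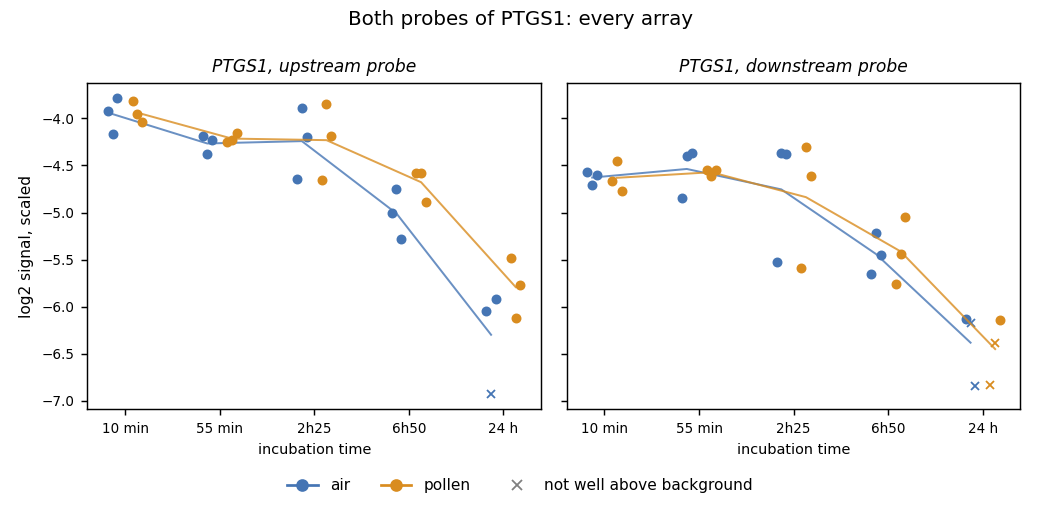
Log2 signal minus the 75th percentile of the array (vertical axis) against incubation time for the upstream and the downstream probe of PTGS1, with 1 point for each array and lines through the group means of air (blue) and pollen (orange); crosses are arrays on which the probe was not well above background. The group means of the upstream probe go from -4.24 at 2h25 min to -6.30 at 24 h in air, and both probes fall in both arms.

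PTGER4 was highest in pollen at 55 min and 2h25 min and lowest at 24 h. In air at 24 h it read -1.44, -1.36 and -1.66, and in pollen -1.46, -1.46 and -1.53. All 6 of these arrays were below every array of 2h25 min. From 2h25 min to 24 h PTGER4 fell by 0.81 in air (1.75-fold, SE 0.16, limma adjusted p 0.000596) and by 1.34 in pollen (2.53-fold, SE 0.16, limma adjusted p 5.45e-06), and it was called under 16 of 16 other settings in each arm. On the slide shared by both times it read -0.69 in air and -0.34 in pollen at 2h25 min. Whether the fall differed between the arms over the whole interval was not tested.

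In pollen the step to 6h50 min was the larger part of that fall, but slide and time cannot be told apart in steps to or from 6h50 min. The change from 2h25 min to 6h50 min was -0.79 (SE 0.16, limma adjusted p 0.00102), 1 of 2 genes called there, where 31% of all probes were called and 19.9% lower, and that from 6h50 min to 24 h was -0.55 (SE 0.16, limma adjusted p 0.0112). In air the steps were -0.32, with a limma adjusted p of 0.134, and -0.49, with 0.019. The later step in air lost its call without air 6h50 min replicate 2 (-0.42), without air 6h50 min replicate 3 (-0.46) or without air 24 h replicate 3 (-0.41), and the later step in pollen without pollen 6h50 min replicate 2 (-0.47). From 10 to 55 min the change of PTGER4 was 0.59 in pollen (SE 0.16, limma adjusted p 0.0856) and -0.01 in air.

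PTGER4 and PTGS1 are the genes whose late fall passed in both arms under every setting that kept the probe. The filter for probes well above background on all arrays left PTGS1 out. The 250 bases before their RefSeq starts are shown for that reason, on GRCh38.p14, plus strand, with capitals for the motifs searched. The window of PTGER4 is chr5:40679665-40679914, and those of the upstream and downstream PTGS1 starts are chr9:122370283-122370532 and chr9:122375052-122375301.
PTGER4: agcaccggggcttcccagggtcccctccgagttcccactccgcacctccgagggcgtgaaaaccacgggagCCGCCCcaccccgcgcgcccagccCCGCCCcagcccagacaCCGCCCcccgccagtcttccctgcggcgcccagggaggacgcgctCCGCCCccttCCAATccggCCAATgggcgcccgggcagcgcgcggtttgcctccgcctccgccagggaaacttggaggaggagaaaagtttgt
PTGS1 upstream start: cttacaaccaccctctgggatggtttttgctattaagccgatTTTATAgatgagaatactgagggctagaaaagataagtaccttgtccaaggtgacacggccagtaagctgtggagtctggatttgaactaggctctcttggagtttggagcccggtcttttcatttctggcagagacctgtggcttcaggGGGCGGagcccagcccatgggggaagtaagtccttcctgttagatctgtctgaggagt
PTGS1 downstream start: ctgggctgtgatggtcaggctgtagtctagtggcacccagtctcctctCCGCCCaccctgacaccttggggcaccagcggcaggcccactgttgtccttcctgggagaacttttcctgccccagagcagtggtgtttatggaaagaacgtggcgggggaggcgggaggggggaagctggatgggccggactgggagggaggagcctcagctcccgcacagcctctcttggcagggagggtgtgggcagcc

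The motifs, searched on both strands, were the TATA box TATAAA, the CCAAT box CCAAT, the GC box GGGCGG, the core of the cyclic AMP response element TGACG and the AP-1 site TGANTCA. They occur in 10.7, 32, 42.6, 21.2 and 6.57% of all 35116 such windows in the RefSeq table. The PTGER4 window holds 2 CCAAT boxes, 74 and 83 bases before the start, and 4 GC boxes, all on the reverse strand, with no TATA box, TGACG or AP-1 match. The upstream PTGS1 window holds a GC box 58 bases before the start and TATAAA on the reverse strand 208 bases before it, and the downstream window holds 1 GC box. No matches overlapped. A match describes these letters and is not a bound site.

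PLA2G4A read -3.64, -3.97 and -3.96 in air at 2h25 min, all above the air arrays of 24 h given above. It fell by 0.62 in air from 2h25 min to 24 h (1.54-fold, SE 0.16, limma adjusted p 0.00585). The step from 6h50 min to 24 h was -0.61 (limma adjusted p 0.00503), but slide and time cannot be told apart there. In pollen the change to 24 h was -0.40 with a limma adjusted p of 0.0791, and with the replicate number as a block it passed at 0.0424, in a range of 0.028 to 0.507 over 16 settings. The fall in air was not called with the slide as a block, at -0.54 and a limma adjusted p of 0.0713 in a range of 0.00104 to 0.298 over 16 settings.

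PTGER2, the gene of the EP2 receptor, read -2.20, -1.44 and -1.55 in pollen at 2h25 min and -2.42, -2.49 and -2.38 at 24 h. The groups did not overlap, although 1 array at 2h25 min lay near those at 24 h. The fall was 0.70 in pollen (1.62-fold, SE 0.20, limma adjusted p 0.0138). It lost its call without pollen 2h25 min replicate 2 (-0.55) or without pollen 2h25 min replicate 3 (-0.61). In air the change was -0.54 with a limma adjusted p of 0.0501, just outside the threshold, and it was called in 7 of 16 other settings, at 0.00883 with the replicate number as a block in a range of 0.00155 to 0.473.

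PTGES fell by 1.04 in air (2.06-fold, SE 0.34, limma adjusted p 0.0258) and by 1.04 in pollen (SE 0.34, limma adjusted p 0.0302), where the arrays of 2h25 min and 24 h overlapped. At 24 h it was well above background on 2 of 3 air arrays and 1 of 3 pollen arrays. PTGES was called in 8 of 15 other settings in air and in 6 of 15 in pollen, with changes down to -0.24 and -0.285 with normexp and quantile normalization. In air the call was lost without air 2h25 min replicate 3 (-0.75) or without air 24 h replicate 2 (-0.77), and in pollen without 2h25 min replicate 2 (-0.85), 2h25 min replicate 3 (-0.93), 24 h replicate 1 (-0.77) or 24 h replicate 2 (-1.01). From 6h50 min to 24 h PTGES fell by 0.98 in pollen (limma adjusted p 0.0291), which was lost without pollen 6h50 min replicate 3 (-0.71), 24 h replicate 1 (-0.711) or 24 h replicate 2 (-0.95), and the change in air was -0.60 (limma adjusted p 0.169). PTGS2 in air passed the test at -1.35 (SE 0.49, limma adjusted p 0.0426), but 0 of 3 arrays at 24 h were well above background, 1 array of 2h25 min overlapped them, and the bound on the fold was under 1, so no fold can be given. The PTGS2 call was lost without air 2h25 min replicate 1 (-0.98), 2h25 min replicate 2 (-1.355), 24 h replicate 2 (-1.43) or 24 h replicate 3 (-0.935), and with the slide as a block (-0.938).

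The remaining synthase genes took another course. PTGES2 in pollen read -0.85, -0.31 and -0.26 at 2h25 min and 0.148, 0.141 and -0.085 at 6h50 min. The 6h50 min arrays all lay above those of 2h25 min. It rose by 0.54 (1.45-fold, SE 0.17, limma adjusted p 0.0195), the only gene of the 8 called higher in any step, where 11.1% of all probes were. It lost its call without the low pollen 2h25 min replicate 1 (0.35), without pollen 6h50 min replicate 1 (0.501) or without pollen 6h50 min replicate 2 (0.504). In air the same step was 0.18 with overlapping arrays (limma adjusted p 0.434). Slide and time cannot be told apart in this step. PTGES3 passed no step between times, with changes of -0.53 to 0.19, and from 2h25 min to 24 h it differed by -0.11 in air and -0.36 in pollen.

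**Figure D4:**
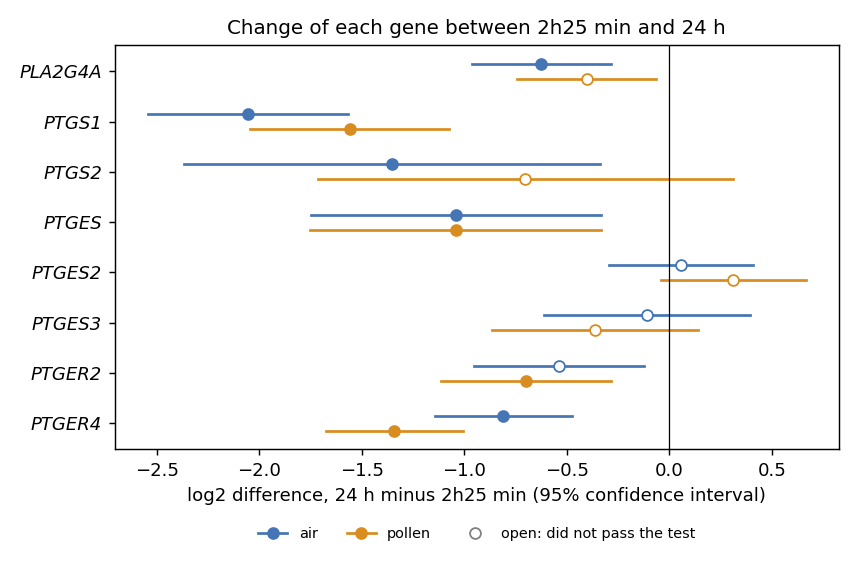
Change in log2 signal from 2h25 min to 24 h (horizontal axis, 95% confidence interval from limma) for the 8 tested genes in air (blue) and pollen (orange), with filled points where the change passed the test across all probes. PTGS1 and PTGER4 are filled in both arms at -2.06 and -1.56 and at -0.81 and -1.34, and the PTGS2 point in air rests on arrays that were not well above background at 24 h.

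The early steps between neighbouring times gave no calls. By limma, 0 of 8 genes were called from 10 to 55 min and from 55 min to 2h25 min in either arm, where 0.187 and 0.0156% of all probes were called in air and 0.841 and 0.202% in pollen. The air calls divide into 0.115 and 0.00935% higher and 0.0717 and 0.00623% lower. At an unadjusted p under 0.05 there were PTGER4, higher, and PTGES3, lower, both from 10 to 55 min in pollen. There 15% of all probes had such a p, 6.68% higher and 8.29% lower. From 6h50 min to 24 h, 3 of 8 genes were called in air (PTGS1, PLA2G4A and PTGER4), where 40.5% of all probes were called, 24.7% higher and 15.9% lower, and 3 in pollen (PTGS1, PTGER4 and PTGES), where 36.2% were called, 21.8% higher and 14.5% lower. All 8 genes had a negative change over this step in both arms, with medians of -0.54 and -0.47 beside 0.14 and 0.12 for all probes. The share of all probes with a negative change was not computed. PTGS2 was well above background on 0 of 3 air arrays at both times. In pollen it was so on 1 of 3 arrays at 6h50 min and 0 of 3 at 24 h, so its sign is not established. Here too slide and time cannot be told apart.

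Markers of cell type moved over the same interval. The summed signal of 8 markers of other cell types, in units of the 75th percentile, was 1.67 to 2.58 in air at 2h25 min and 0.948 to 1.05 at 24 h, and in pollen 1.75 to 2.71 and 1.14 to 1.2. Of the 7 of these that were tested, 5 fell in air and 4 in pollen and 0 rose, where 14.9 and 11.8% of all probes fell and 12.5 and 11.2% rose. DCN, a fibroblast marker, went from a mean of -3.12 to -5.79 in air. The summed signal of the 7 epithelial markers was 88.9 to 116 in air at 2h25 min and 65.5 to 92.4 at 24 h, and in pollen 92.2 to 122 and 67.8 to 84.4. Of these 7, 5 fell and 1 rose in each arm, with KRT5, a basal keratin, at 2.58 and -0.39 in air and EPCAM at 1.14 and 1.95. The part of these shifts in the fall of the prostaglandin genes was not tested.

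Among the 5 genes whose 10 group means ran most like those of PTGS1, of 15956 compared, were MT1DP, MMP2, DNAH2 and ETV6, with Pearson correlations of 0.997, 0.993, 0.992 and 0.991. The lowest group mean of MT1DP was -8.33, under the lowest signal well above background on any array (-7.43), so its low end gives no level. PTGS1 itself was well above background on 2 of 3 air arrays at 24 h. MMP2, a gelatinase, went from -4.06 to -6.38 between its highest and lowest group mean. Over the 30 single arrays the correlations of these 4 were 0.817 to 0.92. The points share arrays, slides and scaling, so these are descriptions.

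The wider pathway gave 0 calls between pollen and air at any time. The lists held 12 tested genes of arachidonate release and recycling, 7 other prostanoid synthases, 4 other prostanoid receptors, 10 genes of prostaglandin transport and inactivation, 11 of leukotrienes and lipoxygenases and 10 targets of cyclic AMP and CREB. From 2h25 min to 24 h in air, where 14.9% of all probes fell and 12.5% rose, 3 of the 7 other synthases fell and 0 rose. Among those were TBXAS1, the thromboxane synthase, which fell by 1.39 (limma adjusted p 4.35e-08), and AKR1C3, a prostaglandin F synthase, which fell by 1.92 (limma adjusted p 3.9e-06). Of the 4 other receptors, PTGFR, which binds prostaglandin F2 alpha, fell by 1.15 and PTGFRN, a protein that associates with it, rose by 0.45. Of the 10 transport and inactivation genes 1 rose and 2 fell, and SLCO2A1, the prostaglandin uptake transporter, fell by 1.45. Of the 12 genes of release and recycling 2 rose and 1 fell, and MGLL, which releases arachidonate from a monoglyceride, rose by 0.90. Of the 11 leukotriene and lipoxygenase genes 0 rose and 2 fell.

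In pollen over the same interval, where 11.8% of all probes fell and 11.2% rose, 2 of the 7 other synthases fell and 0 rose. TBXAS1 fell by 1.18 and AKR1C3 by 1.68. PTGFR fell by 0.83 and PTGFRN rose by 0.44. Of the 10 transport and inactivation genes 2 fell and 0 rose, and SLCO2A1 fell by 1.33. Of the genes of release and recycling 2 rose and 3 fell, with MGLL changing by 0.75, and of the leukotriene and lipoxygenase genes 2 fell and 0 rose. PTGFRN was named after its values were seen.

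The targets of cyclic AMP, the second messenger of EP2 and EP4, changed at several steps. From 10 to 55 min in pollen 4 of 10 rose, NR4A3 by 3.25 (limma adjusted p 1.73e-07), NR4A2 by 1.61, PDE4D by 0.79 and PER1 by 0.70, where 0.421% of all probes rose. In air NR4A3 rose by 2.31 and PER1 by 0.72, where 0.115% rose. Between pollen and air NR4A3 differed by 1.01 at 55 min (SE 0.26, limma adjusted p 0.92) and by 1.27 at 2h25 min (SE 0.26, limma adjusted p 0.0918). In the order of the times, 4, 10, 8, 7 and 3 of these 10 genes had a higher mean in pollen, and 0 were called. At 55 min, where pollen includes the array of the other design, their median difference was 0.09, beside -0.01 for all probes. The share of all probes higher in pollen was not computed. From 2h25 min to 24 h 6 of the 10 fell in air and 7 in pollen and 1 rose in each arm, beside 14.9 and 11.8% of all probes lower. NR4A3 fell by 1.71 in air and by 3.11 in pollen, and PPARGC1A, a coactivator of metabolic genes, fell by 1.17 and by 1.21. From 2h25 min to 6h50 min 4 fell in air and 5 in pollen, beside 22.5 and 19.9% of all probes. At that step 1 rose in each arm, CREM by 0.36 in air and 0.45 in pollen, beside 9.9 and 11.1% of all probes. All of these comparisons use the same arrays as the values of PTGER4 above.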

How the data were processed

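RNA from 30 cultures was hybridised on 1-colour Agilent arrays. The authors deposited spot intensity per array, which Agilent Feature Extraction 11.0.1.1 had background-subtracted and detrended, and a table of log2 values, which per their values were quantile normalized and which the methods trace to limma. There, 24 of 30 columns matched their own array best and the 6 columns of 24 h matched another array of the same group, so the intensities were used.

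In R 4.3.3, spots marked as outliers (non-uniform or population) were left out, replicate spots averaged, log2 taken and the 75th percentile over the 33873 probes of both designs subtracted. Control spots were left out. Tested were probes that every 1 of the 3 arrays in at least 1 group read well above background, by limma 3.58.1 (group means over all 30 arrays, no covariate, residual df 20), with Benjamini-Hochberg adjustment, thresholds 0.05 and 1.1-fold. For a gene with several probes the brightest on average was used. A bound on a fold, with the lowest signal well above background in place of a dim value, was computed for PTGS2 in air. The number of arrays limits the precision. The authors state repeats on different days; p-values measure the spread between such repeats.

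Replicate numbers paired air and pollen arrays at 10 min, 2h25 min and 24 h, where all correlations of same-numbered deviations were 0.299 or higher, but not at 55 min (lowest -0.065) or 6h50 min (lowest -0.028). Genes and lists were chosen with earlier results of these data known. Genes named beyond the 9 are list members called in a contrast (at most 8 per contrast by size of change, with exceptions stated), and the 5 whose group means were most like those of PTGS1, of which 1 is not reported here. Alternatives were the scaling, background correction, dim-probe filter, array weights, replicate block, slide, the authors' log2 values, uneven areas, arrays in the fit, other probe and each array left out. RefSeq promoter windows were read for 9 of 9 genes with Python 3.11.15, and figures were drawn with matplotlib 3.10.9.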

Additional observations from a re-analysis of the deposited data

How the results depend on the processing

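Counts of pathway genes called between pollen and air stayed at 0 at every time under all settings, except 1 (PTGER4) at 55 min with array weights. The PTGS1 difference at 24 h turned to -0.068 with the other PTGS1 probe. Over time, the count from 2h25 min to 6h50 min in air, 1 in the main test, was 0 with scaling over own probes, normexp and quantile normalization, probes well above background on all arrays, the authors' table, or only the arrays compared. In pollen over that step it was 1 in place of 2 with own-probe scaling, the authors' table, or only the arrays compared. From 6h50 min to 24 h it was 1 in place of 3 with own-probe scaling in both arms, and 1 in pollen with probes well above background on all arrays. From 2h25 min to 24 h, chosen after seeing the data, it was 2 in place of 5 in air with own-probe scaling, normexp or the authors' table and 3 without a filter on dim probes or with the all-arrays filter, and 2 in place of 4 in pollen with own-probe scaling, the all-arrays filter, the authors' table or only the arrays compared. The all-arrays filter leaves 5 of the genes by construction; other causes were not tested.

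Leaving out each array in turn gave counts of 0 to 1 and 2 to 3 in air and 1 to 3 and 2 to 3 in pollen for the steps to 6h50 min and to 24 h, 3 to 5 in air and 2 to 4 in pollen from 2h25 min to 24 h, and 0 to 0 elsewhere. The replicate block gave 0 genes at each time of pollen against air, with 42 probes higher at 2h25 min in place of 11 and 119 at 6h50 min in place of 12 among all probes, and over time 1, 3, 6 in air and 3, 4, 5 in pollen for the steps to 6h50 min, to 24 h and from 2h25 min to 24 h. Across times the replicate numbers did not pair the arrays (correlations of -0.436 to 0.243). Own-probe scaling moved the median of all probes by -0.37 in pollen minus air at 55 min. Slide as a block could not be fitted for 6h50 min against other times, since those arrays lie on a slide of their own, and values within a slide were had for 55 min and 2h25 min. Signal over background limits PTGS2, PTGES at 24 h and HPGD.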
